A study of Mus musculus with 4 samples.

Results

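Noradrenaline and adrenaline act on cells through adrenergic receptors, and 7 genes of this family were followed here across the cell types and neuronal clusters of the mouse posterior hindbrain: *Adra1a*, *Adra1b*, *Adra1d*, *Adra2a*, *Adra2b*, *Adra2c* and *Adrb1*. They were chosen by gene family and not by their values, out of 32285 genes in the deposited count matrices, and the other beta receptor genes were not analysed here. Nuclei came from a part of the hindbrain that holds the area postrema (AP) and the nucleus tractus solitarius (NTS), and RNA was counted in 4 single-nucleus libraries. There were 2 libraries of control mice, labelled wild type. The paper gives its controls as AgRP-IRES-Cre-/-;hM3DGqfl/-;POMC-Dre-/-;hM4DGifl/-, with the hM3DGq and hM4DGi alleles but no Cre or Dre. The other 2 libraries were of AgRP-Gq;POMC-Gi mice, whose full genotype is AgRP-IRES-Cre+/-;hM3DGqfl/- ;POMC-Dre+/-;hM4DGifl/-. In these mice the excitatory receptor hM3DGq is placed in AgRP neurons by Cre and the inhibitory receptor hM4DGi in POMC neurons by Dre, so both drivers act on populations best known from the hypothalamic arcuate nucleus, which was not sampled. Mice of both groups, adults of 12 to 20 weeks and of both sexes, had been injected with clozapine-N-oxide (CNO, the drug that switches these designer receptors) at 3 mg per kg 1 h before the tissue was taken without food. Animals of a condition were pooled and the labels do not say which mice went into which library. Every p-value below therefore measures only the spread between the 2 libraries of a group. Fits with a library left out have 1 group with a single library, so only their effect sizes are given. The AgRP-Gq;POMC-Gi libraries differed widely in the RNA of the inactive X chromosome, as given below, so they did not hold the same mix of mice. Their spread thus includes differences between mice. Whether that of the control libraries is technical or lies in which mice they hold was not tested.

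Adrenergic receptors are G-protein-coupled and fall into 3 branches. Alpha-1 receptors couple to Gq, which raises calcium through phospholipase C. Alpha-2 receptors couple to Gi/o, which lowers cyclic AMP, opens inward rectifier potassium channels and restrains transmitter release, also on the noradrenergic neurons themselves. Beta receptors couple to Gs and raise cyclic AMP. In the NTS and its surroundings, groups of noradrenergic and adrenergic neurons make the ligand, and visceral, cardiovascular and feeding signals meet there.

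Of 44303 barcodes, the authors kept 39461 nuclei, of which 12539 (31.8%) were annotated as neurons in 134 clusters, beside 13 other cell types. Libraries held 9723 to 10051 kept nuclei and 48904976 to 53089402 UMIs (unique molecular identifiers, each standing for a counted RNA molecule), and the median neuron had 8704 UMIs. Libraries shared 19 to 36 barcodes by pairs, at most 0.370% of the smaller library. *Xist*, the RNA of the inactive X chromosome, stood at 507, 319 and 541 CPM in neurons of control libraries 1 and 2 and AgRP-Gq;POMC-Gi library 1 but at 16.2 CPM in AgRP-Gq;POMC-Gi library 2, so the sexes of the pooled mice were not in balance between libraries. Each library, this one included, is left out in turn below, and the part of sex in the group differences was not tested. Neurons made up 25.4% and 27.2% of the kept nuclei in control libraries and 38.0% and 36.5% in AgRP-Gq;POMC-Gi libraries. Marker lists were highest in the type of that name for 12 of the 13 types checked, and the exception was the astrocyte list, whose sum was higher in tanycyte-like nuclei (1472 against 1291 CPM) through *Slc1a3*. CPM, the unit used throughout, is the UMIs of a gene over all UMIs of the same nuclei, scaled to 1000000 and computed for each library. Values with ± are the mean and SD over the 4 libraries.

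*Adra1a* and *Adra1b* carried most of the UMIs of these 7 genes. Over all kept nuclei, 8225 UMIs of *Adra1a* and 3420 of *Adra1b* were counted, against 1228 of *Adrb1*, 638 of *Adra2a*, 368 of *Adra2c*, 42 of *Adra1d* and 4 of *Adra2b*. The genes differ in length, and nuclear RNA carries introns, so levels between genes were set side by side per kilobase. The libraries were made with a 3' kit, so UMIs need not grow in step with length. Orders per kb, here and in the lists below, are descriptions only. By gene span neurons had 0.671 CPM per kb of *Adra2c* (gene span 3.445 kb), 0.475 of *Adra2a* (4.832 kb), 0.386 of *Adrb1* (10.915 kb), 0.313 of *Adra1a* (135.918 kb), 0.157 of *Adra1b* (126.605 kb), 0.0178 of *Adra1d* (16.434 kb) and 0.0070 of *Adra2b* (4.014 kb). The order by UMIs and the order per kb thus differed, and the alpha-1 genes that led by UMIs were the longest. Per kb of exon in place of the span, *Adra1b* (5.88 CPM per kb) and *Adra1a* (4.87) led, ahead of *Adrb1* (1.24), *Adra2c* (0.671) and *Adra2a* (0.475), so the order of the genes depends on the length used. Of the UMIs of each gene, neurons held 64.6% for *Adra1a*, 72.1% for *Adra1b*, 78.3% for *Adra2c*, 45.0% for *Adra2a* and 42.9% for *Adrb1*. Astrocytes held 26.7% of the *Adra1a* UMIs, 36.1% of those of *Adra2a* and 38.5% of those of *Adrb1*.

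The genes lie on 5 chromosomes of GRCm38. *Adra1a* is at chr14:66635251-66771168 (plus strand), *Adra1b* at chr11:43774606-43901210 (minus), *Adra1d* at chr2:131545850-131562283 (minus), *Adra2a* at chr19:54044151-54048982 (plus), *Adra2b* at chr2:127363208-127367221 (plus), *Adra2c* at chr5:35278319-35281763 (plus) and *Adrb1* at chr19:56722199-56733113 (plus). Only *Adra1d* overlaps another annotated gene, the antisense transcript *Gm14285* on the opposite strand, which had 34 UMIs in neurons.

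**Figure D1:**
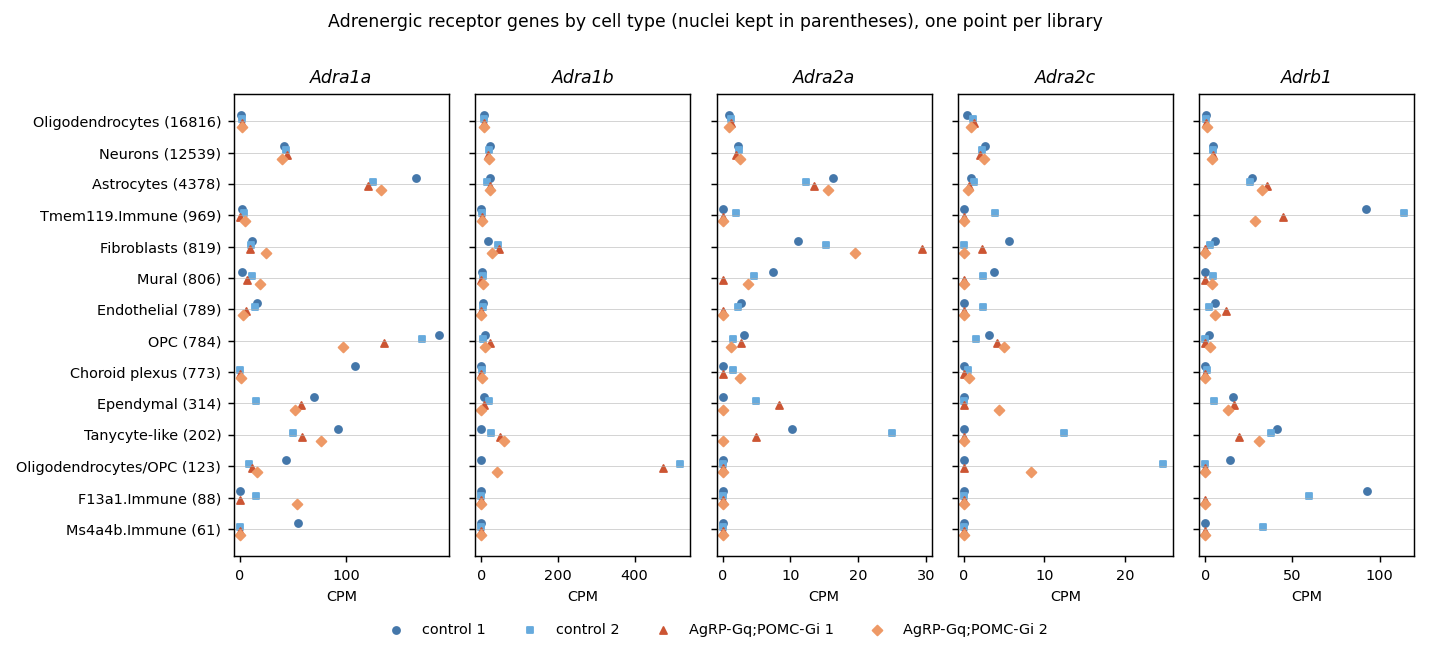
CPM of 5 adrenergic receptor genes (horizontal axes, a separate linear scale for each gene) in the 14 annotated cell types (rows, with the number of kept nuclei), where each point is a library and colours and shapes mark the 4 libraries. *Adra1a* was highest in OPC (148 CPM) and astrocytes (136 CPM), *Adrb1* in Tmem119.Immune nuclei (69.9 CPM), and the *Adra1b* points in Oligodendrocytes/OPC ranged from 0 to 520 CPM. The point of *Adra1a* at 108 CPM in choroid plexus comes from a library with 2 nuclei of that type.

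*Adra1a*, the alpha-1A receptor gene, was highest in oligodendrocyte precursor cells (OPC) and astrocytes rather than in neurons. OPC had 188 and 171 CPM in control libraries 1 and 2 and 136 and 97.1 CPM in those of AgRP-Gq;POMC-Gi mice 1 and 2, a mean of 148 ± 40.3 CPM, with a UMI in 38.1% of 784 nuclei. Astrocytes had 166, 126, 121 and 133 CPM in the same order, a mean of 136 ± 20.5 CPM, with a UMI in 31.0% of 4378 nuclei. The libraries of these 2 types overlapped, so their order is not resolved, whereas the lowest astrocyte library (121 CPM) lay above the highest library of tanycyte-like nuclei (92.2 CPM), the next type. Tanycyte-like nuclei (69.3 ± 18.9 CPM), ependymal nuclei (48.8 ± 23.8 CPM) and neurons (42.5 ± 1.95 CPM) followed. Each overlapped with the next in this order, while all 4 tanycyte-like libraries (at least 49.96 CPM) lay above all neuron libraries (at most 44.3 CPM). The tanycyte-like values rest on 9, 4, 12 and 25 UMIs, so the place of this type against neurons and astrocytes is not firm. Oligodendrocytes, the most numerous type, had 1.57 ± 0.31 CPM and a UMI in 0.404% of 16816 nuclei at a median of 2460 UMIs, against a median of 3728 UMIs in OPC, which serves as the level that free RNA could give. With every nucleus thinned to 800 UMIs (the mean over all possible draws), a UMI of *Adra1a* was found in 10.5% of OPC, 9.29% of astrocytes, 3.18% of neurons and 0.130% of oligodendrocytes. All 11 astrocyte clusters carried the gene, from 79.1 CPM in cluster 20 to 181 CPM in cluster 15 (libraries pooled). The 27.5 CPM of choroid plexus rest on control library 1, where the type had 2 nuclei.

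*Adra1b*, the alpha-1B receptor gene, was near 20 CPM in neurons (19.9 ± 1.73 CPM, a UMI in 13.9% of nuclei) and astrocytes (20.5 ± 4.12 CPM, 6.05%), and their libraries overlapped. Higher means in fibroblasts (32.9 ± 13.5 CPM) and tanycyte-like nuclei (33.0 ± 26.0 CPM) came with wide spreads. Oligodendrocytes had 6.73 ± 0.61 CPM and a UMI in 1.53% of nuclei. The highest type by far was the small group annotated Oligodendrocytes/OPC, with 123 nuclei, whose 4 libraries had 0, 520, 473 and 41.4 CPM in the order given above. This signal belonged to 1 of its 2 clusters: cluster 138 had 149 UMIs of *Adra1b* (779 CPM over the pooled libraries) and a UMI in 47 of 61 nuclei (77.0%), whereas cluster 136 had 1 UMI in 62 nuclei. Cluster 138 held 0, 27, 32 and 2 nuclei of the 4 libraries, and the 2 libraries with none or 2 of them were those with low *Adra1b* levels of the type.

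The leading genes of cluster 138 go against its label. By fold over all nuclei, with a small constant added to both levels, they were *Prg4* (4090 CPM, in 96.7% of nuclei), *Fn1* (4267 CPM, 98.4%), *Gm12153*, *Cdh1*, *Dapl1* and *Prdm6*. The myelin genes *Mog* and *Mobp* and the precursor gene *Vcan* were at 10.5, 31.4 and 5.23 CPM, each below its mean over all nuclei (255, 378 and 51.6 CPM). The precursor genes *Pdgfra* and *Cspg4*, at 31.4 and 15.7 CPM, were above theirs (22.5 and 11.3 CPM). *Fn1* encodes fibronectin and *Prg4* lubricin, both secreted proteins of the extracellular matrix. Cluster 136 by contrast was led by genes that include *Gpr17* and *Neu4*, known from oligodendrocyte precursors on their way to myelination. The fibroblast genes *Col1a1* and *Dcn* were at 10.5 and 62.8 CPM in cluster 138, above their means over all nuclei (3.28 and 17.2 CPM). Among other non-neuronal clusters, fibroblast cluster 93 had the next highest *Adra1b* level, 134 CPM over pooled libraries and a UMI in 23.8% of 105 nuclei. The *Adra1b* level under the label Oligodendrocytes/OPC is therefore that of cluster 138, which is called here by its number and its genes.

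*Adra1d*, the alpha-1D gene, and *Adra2b*, the alpha-2B gene, were near the limit of detection. *Adra1d* had 35 UMIs in 35 neurons (0.279% of neurons, exact 95% interval 0.194 to 0.388%), 5 in astrocytes and 1 each in OPC and oligodendrocytes. *Adra2b* had 4 UMIs, all in neurons (0.0319%, interval 0.00869 to 0.0817%), and 0 of 16816 oligodendrocytes allows a share of up to 0.0178% by a floor of 3 nuclei over their number, which is not an exact interval. These limits cover counting error only and bound nuclei with a UMI, not nuclei that express the gene.

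*Adra2a*, the alpha-2A receptor gene and a target of clonidine-like drugs, was highest in fibroblasts and astrocytes. Fibroblasts had 11.1, 15.3, 29.3 and 19.5 CPM in the 4 libraries (18.8 ± 7.81 CPM, a UMI in 4.40% of nuclei), and astrocytes had 16.2, 12.3, 13.4 and 15.5 CPM (14.4 ± 1.82 CPM, 4.98%). The 2 types overlapped. Neurons had 2.30 ± 0.28 CPM with a UMI in 2.16% of nuclei, and oligodendrocytes 1.12 ± 0.16 CPM and 0.303%. The neuronal share rests on deeper nuclei. At 800 UMIs per nucleus it was 0.196%, against 1.16% in astrocytes, 1.46% in fibroblasts and 0.105% in oligodendrocytes.

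*Adra2c*, the alpha-2C receptor gene, was low in every type. Neurons had 2.57, 2.19, 2.00 and 2.49 CPM (2.31 ± 0.27 CPM, a UMI in 2.20% of nuclei), all above the 4 oligodendrocyte libraries (0.398 to 1.26 CPM) and the 4 astrocyte libraries (0.507 to 1.25 CPM). OPC had 3.42 ± 1.50 CPM and overlapped with neurons. The higher mean of Oligodendrocytes/OPC (8.26 ± 11.7 CPM) came from 2 libraries only, and this order is unresolved.

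*Adrb1*, the beta-1 receptor gene, had its highest mean in microglia, although their libraries overlapped with those of the next types. These nuclei, annotated Tmem119.Immune, had 92.1, 114, 44.8 and 28.5 CPM (69.9 ± 40.0 CPM) and a UMI in 12.6% of 969 nuclei. Astrocytes had 26.8, 25.8, 35.2 and 32.5 CPM (30.1 ± 4.51 CPM, 9.55%), and tanycyte-like nuclei 32.1 ± 9.49 CPM. F13a1.Immune nuclei, which carry macrophage markers, had a mean of 38.0 ± 45.9 CPM from 7 UMIs. In AgRP-Gq;POMC-Gi library 2, astrocytes (32.5 CPM) lay above microglia (28.5 CPM), so the order of these types is not resolved. Neurons were lower, at 4.21 ± 0.36 CPM with a UMI in 3.88% of nuclei, and oligodendrocytes had 0.593 ± 0.20 CPM and 0.155%. At 800 UMIs per nucleus, 5.62% of microglia, 2.28% of astrocytes, 0.362% of neurons and 0.0489% of oligodendrocytes had a UMI of *Adrb1*. Astrocyte clusters ranged from 12.9 to 38.6 CPM. Across types, *Adra1a* and *Adrb1* thus had different places: microglia carried *Adrb1* with 2.53 ± 1.98 CPM of *Adra1a*, OPC carried *Adra1a* with 1.14 ± 1.33 CPM of *Adrb1*, and astrocytes carried both.

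**Figure D2:**
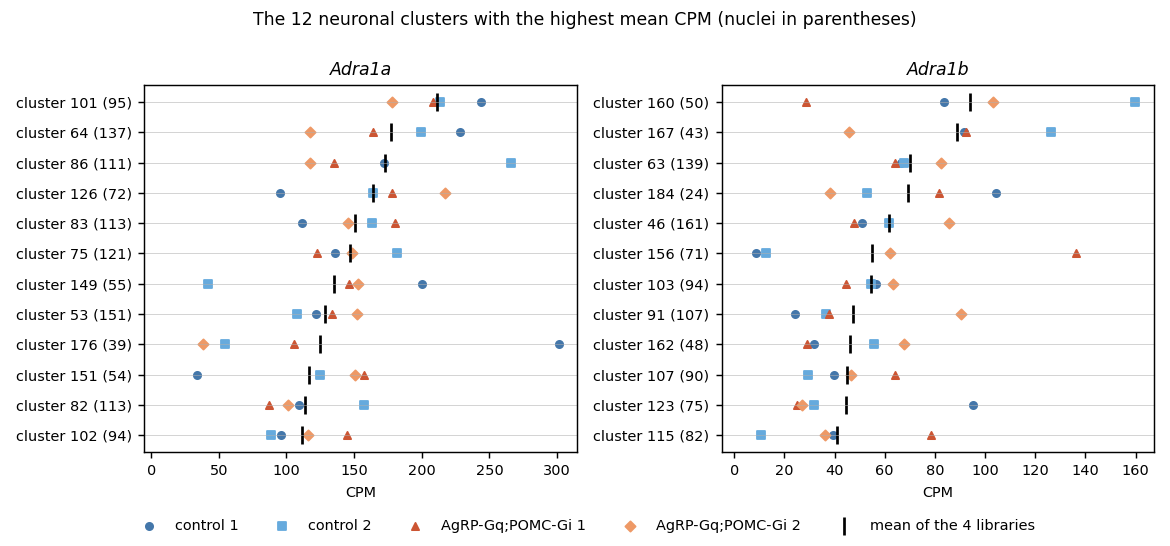
CPM of *Adra1a* (left) and *Adra1b* (right) in the 12 neuronal clusters with the highest mean of each gene, with points for the 4 libraries and a bar for their mean. Cluster 101 had 178 to 244 CPM of *Adra1a*. The 4 libraries of cluster 63 (139 nuclei) lay between 64.2 and 82.3 CPM of *Adra1b*, a narrower range than in the smaller clusters 160 and 167 above it (50 and 43 nuclei).

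Among neurons, 120 of the 134 clusters had 5 or more nuclei in each of the 4 libraries and were ranked. Numbers and gene names of clusters are those of the deposited annotation. *Adra1a* varied widely among them, from 0 to 211 CPM with a median of 30.1 CPM, and was found in 117 of the 120 clusters. Cluster 101 (*Kcnmb2*/*Ebf3*) was highest, with 244, 214, 208 and 178 CPM in the 4 libraries (211 ± 26.7 CPM) and a UMI in 67.4% of 95 nuclei. The libraries of 111 other clusters all lay below its lowest library, and 8 clusters overlapped with it. Clusters 64 (*Ebf3*/*Pax2*, 177 ± 47.7 CPM), 86 (*Tfap2b*/*Col25a1*, 173 ± 66.3 CPM), 126 (*Tfap2b*/*Slc39a8*, 164 ± 50.8 CPM) and 83 (*Agtr1b*/*Cntnap5b*, 150 ± 29.4 CPM) followed, and their order is not resolved. All 5 are GABAergic by the 4-fold rule given below, and clusters 101 and 64 also by the 10-fold rule, under which the other 3 fall in neither class. A mean of at least 50 CPM was reached in 36 clusters, of which 20 were GABAergic (of 45 ranked), 10 glutamatergic (of 61 ranked) and 6 neither. The 5 leading clusters held 14.0% of the *Adra1a* UMIs in ranked clusters with 4.40% of the nuclei.

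*Adra1b* had other leading clusters. The median cluster had 15.7 CPM and 7 clusters reached 50 CPM. Cluster 160 (*Ebf2*/*Ism1*) had 83.6, 160, 28.4 and 103 CPM (93.8 ± 54.3 CPM), and the serotonin cluster 167, which carried *Tph2*, the enzyme that starts serotonin synthesis in neurons, and the serotonin transporter *Slc6a4*, had 91.7, 126, 92.3 and 45.7 CPM (89.0 ± 33.0 CPM). Cluster 63 (*Ebf2*/*Th*) came next with 66.6, 67.5, 64.2 and 82.3 CPM (70.1 ± 8.22 CPM, a UMI in 31.7% of 139 nuclei), the steadiest of the leading clusters over the libraries. Clusters 184 (*Calcr*/*Shox2*, 69.4 ± 29.6 CPM) and 46 (*Col18a1*/*Gpc3*, 61.6 ± 17.2 CPM) completed the 5. In this order the 5 held 50, 43, 139, 24 and 161 nuclei, and fewer nuclei give a wider spread by counting alone. Libraries of the 5 overlapped, and 55 clusters overlapped with cluster 160, so no order is claimed. Of the 5, clusters 160, 63 and 184 were glutamatergic and cluster 46 GABAergic, and cluster 184 fell in neither class by the 10-fold rule. Cluster 167 also had *Adra1a* at 110 ± 81.1 CPM, whereas cluster 63 had 44.3 ± 20.7 CPM of it.

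**Figure D3:**
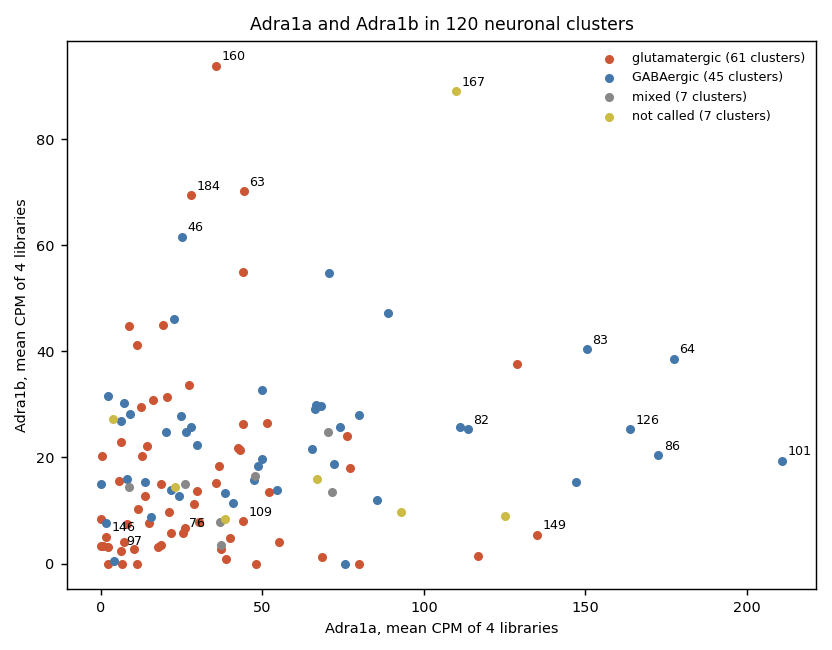
Mean CPM of *Adra1a* (horizontal) against *Adra1b* (vertical) in 120 neuronal clusters, with colours for the transmitter class and numbers for the clusters named in the text. Clusters high in *Adra1a*, such as 101 with 211 CPM, had *Adra1b* levels well under those of clusters 160, 167 and 63, and cluster 167 was high in both.

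Over the 120 clusters the levels of *Adra1a* and *Adra1b* were weakly related (Pearson r of log2(CPM + 10) 0.224, Spearman 0.204, a description over clusters that share libraries and depth). Other pairs of the 5 better detected genes had r between -0.162 and 0.237. In single nuclei, 518 neurons had a UMI of both, which is 18.8% of the neurons with *Adra1a* and 29.8% of those with *Adra1b*, where 13.9% and 22.0% of all neurons had the second gene. Nuclei with more UMIs have more of every gene, and 62.9% of neurons (median 7813 UMIs) had no UMI of any of the 7 genes, 30.3% had 1 gene (median 9974 UMIs) and 6.26% had 2 (median 12529 UMIs), so co-detection was not read further.

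Clusters with *Dbh*, dopamine beta-hydroxylase, which makes noradrenaline, were spread over the order of the receptor genes. Cluster 159 (*Casr*/*Slc6a2*) had the highest *Dbh* level (88.1 CPM) but only 3 nuclei in its smallest library and was not ranked. Among ranked clusters *Dbh* was highest in clusters 76 (75.2 ± 40.8 CPM), 97 (31.0 ± 16.3 CPM) and 149 (13.3 ± 9.43 CPM). The alpha-2A receptor is known as an autoreceptor of noradrenergic neurons. Its gene had 4 UMIs in cluster 76 (2.66 ± 3.07 CPM), 2 in cluster 97 (1.65 ± 1.91 CPM) and 5 in cluster 149 (10.6 ± 8.65 CPM). Cluster 149 had 4.49 CPM of *Th* and 0 CPM of *Slc6a2*, the noradrenaline transporter gene. Cluster 76 had 67.2 and 6.90 CPM of these genes and cluster 97 had 42.2 and 11.1 CPM. The *Dbh* level of cluster 149 alone therefore does not name it as noradrenergic. Cluster 76 had 25.5 ± 21.8 CPM of *Adra1a* (7.43, 18.4, 19.0 and 57.2 CPM), 5.81 ± 4.65 CPM of *Adra1b* and 4.74 ± 6.50 CPM of *Adra2c*. Cluster 97 (*Gfral*/*Sctr*), whose *Gfral* encodes the receptor for the aversive hormone GDF15, had 6.25 ± 10.6 CPM of *Adra1a* and 2.41 ± 2.97 CPM of *Adra1b*, places 105 and 110 of 120. Cluster 149 (*Cartpt*/*Arhgap28*) had 200, 41.7, 145.9 and 153 CPM of *Adra1a* (135 ± 66.8 CPM, place 7).

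Other clusters that the study follows up spread over the range of *Adra1a*. Cluster 82 (*Tal1*/*Nell1*, GABAergic) had 110, 157, 87.0 and 101 CPM (114 ± 30.5 CPM, place 11) with a UMI in 50.4% of 113 nuclei. Cluster 63 was in place 43 and the *Gcg*/*Reln* cluster, the preproglucagon neurons, in place 46 with 43.9 ± 14.3 CPM. The *Rxfp1*/*Ebf2* cluster had a single UMI of *Adra1a* and a single UMI of *Adra1b* in 58 nuclei. In *Adra1b*, cluster 63 in place 3 stood far from cluster 82 (25.3 ± 12.6 CPM, place 37), the *Gcg*/*Reln* cluster (8.02 ± 6.02 CPM, place 88) and the *Rxfp1*/*Ebf2* cluster (5.08 ± 10.2 CPM, place 98). *Adra2a* and *Adra2c* had no UMI in the 139 nuclei of cluster 63, which allows a share of nuclei with a UMI of up to 2.16% by the same floor of 3 nuclei. That is near the share over all neurons (2.16% and 2.20%), so a lower level than in other neurons was not detectable at this depth.

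For the alpha-2 genes the counts per cluster were too few to order clusters, and all 119 other ranked clusters overlapped with the highest one. *Adra2a* reached its highest means in clusters 155 (14.2 ± 16.6 CPM), 174 (13.2 ± 6.52 CPM), 80 (12.5 ± 6.43 CPM), 145 (12.1 ± 14.0 CPM) and 149, on 4 to 10 UMIs each. Clusters 174 (*Prdm6*/*Grp*) and 80 (*Pdyn*/*Cpa6*) had a UMI in all 4 libraries, and *Grp* and *Pdyn* encode gastrin-releasing peptide and prodynorphin. *Adra2c* was highest in clusters 173 (12.5 ± 17.0 CPM), 118, 180, 181 and 58 (8.06 ± 4.18 CPM), on 2 to 10 UMIs each. *Adrb1* had its highest mean in cluster 104 (*Gabra6*/*Fat2*, 14.8, 22.1, 39.4 and 119 CPM from 12 UMIs), and its lowest library lay above all libraries of 93 other clusters, while 26 overlapped with it. Without AgRP-Gq;POMC-Gi replicate 2, which holds the 119 CPM, cluster 162 was first. It was followed by clusters 162 (22.7 ± 13.5 CPM), 107 (16.8 ± 5.81 CPM with a UMI in 20.0% of 90 nuclei), 121 (*Slc17a7*/*Lama1*, 14.0 ± 4.26 CPM) and 89 (13.6 ± 8.50 CPM). *Gabra6* is known from cerebellar and cochlear granule cells, and *Slc17a7* encodes the vesicular glutamate transporter VGLUT1.

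How well these patterns came back in separate libraries differed by gene. Between the means of the 2 control libraries and of the 2 AgRP-Gq;POMC-Gi libraries, Pearson r of log2(CPM + 10) over the 120 clusters was 0.804 for *Adra1a*, with 7 of the 10 leading clusters in common, and 0.694 for *Adra1b*, with 6 of 10. It was 0.468 for *Adrb1* (4 of 10), 0.351 for *Adra2a* (6 of 10) and 0.0680 for *Adra2c* (2 of 10). The cluster pattern of *Adra2c* thus did not come back at this depth.

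**Figure D4:**
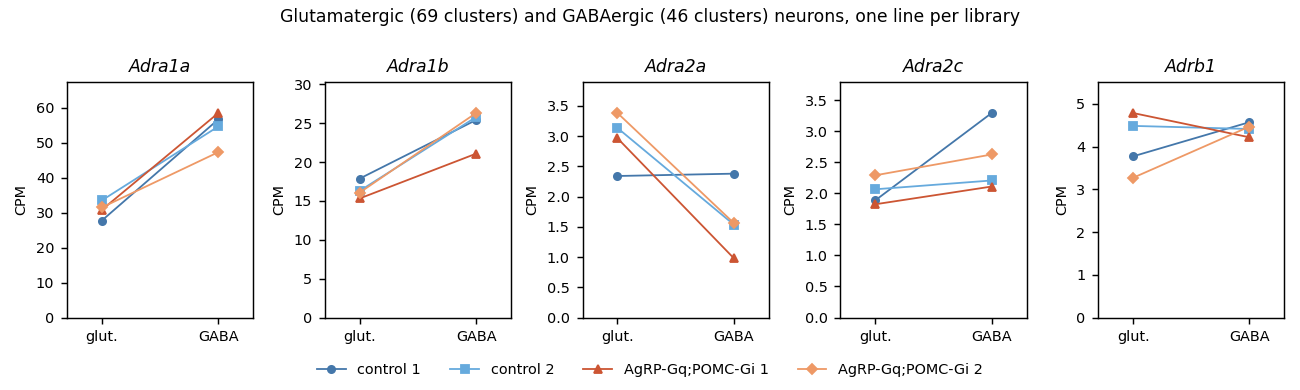
CPM of 5 receptor genes in glutamatergic (69 clusters) and GABAergic (46 clusters) neurons, with a line for each library and axes that start at 0. All 4 lines rise to GABAergic neurons for *Adra1a* (30.9 to 54.3 CPM on average), *Adra1b* and *Adra2c*, and 3 of 4 fall for *Adra2a*.

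Neurons were also grouped by transmitter. Clusters in which *Slc17a6* (the vesicular glutamate transporter VGLUT2) exceeded *Slc32a1* (the vesicular GABA and glycine transporter) by 4-fold or more in mean CPM are called glutamatergic, and those with the reverse GABAergic. *Adra1a* was 30.9 ± 2.39 CPM in glutamatergic and 54.3 ± 4.91 CPM in GABAergic neurons, 1.76-fold higher in the latter, and the libraries of the 2 classes did not overlap (27.8 to 33.5 against 47.3 to 58.5 CPM). *Adra1b* was 16.4 ± 1.07 and 24.7 ± 2.41 CPM, 1.50-fold higher in GABAergic neurons, again without overlap (15.3 to 17.9 against 21.1 to 26.3 CPM). *Adra2c* was 2.02 ± 0.21 and 2.56 ± 0.54 CPM, higher in GABAergic neurons within each of the 4 libraries, although the ranges overlapped. *Adra2a* had the opposite tendency, with 2.95 ± 0.44 CPM in glutamatergic and 1.61 ± 0.58 CPM in GABAergic neurons, a ratio of 1.83 that held in 3 of 4 libraries. *Adrb1* did not differ in a steady direction (4.08 ± 0.69 and 4.42 ± 0.15 CPM, higher in GABAergic neurons in 2 of 4 libraries). With a 10-fold rule in place of the 4-fold rule, *Adrb1* was higher in GABAergic neurons in 4 of 4 libraries and the directions of the other 4 genes were as before. Median depth was close in the 2 classes (8881 and 8765 UMIs). Class and cluster were built from the same nuclei, so these values are a description.

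The genes most alike each receptor gene over the 120 clusters were found by the Pearson r of log2(CPM + 10) among 15465 genes. For *Adra1a* they were *Rnf25* (0.485), *C530008M17Rik* (0.485) and *Slc37a1* (0.484), and the fourth gene had 0.484, so the order is not resolved. For *Adra1b*, *Ripk2* stood at 0.506, ahead of *BC005561* (0.406) and *A630012P03Rik* (0.405). For *Adra2a* the most alike gene was *4930484I04Rik* (0.405), followed by *Gnai2* (0.382), which encodes an inhibitory G-protein subunit, and *Adamts2* (0.379). The fourth gene had 0.369, and by Spearman *Gnai2* was in place 13 and *Adamts2* in place 45. *4930484I04Rik* lies on the same chromosome at chr19:53976462-54001442 on the minus strand, 42.7 kb from *Adra2a*. For *Adra2c* the most alike genes were *Fam163b* (0.361), *Mindy4* (0.357) and *Dkk3* (0.352), and the fourth had 0.348, so the order is not resolved. Between the groups *Adra2c* itself had r of 0.0680 over these clusters and *Adra2a* 0.351, so nothing is read from the genes most alike them. For *Adrb1* the most alike gene was again a neighbour, *Gm50100* (0.555) at chr19:56741029-56746913 on the minus strand, 7.92 kb beyond the end of *Adrb1*, followed by *Gm42397* (0.532) and *Slc17a7* (0.528). *Gm50100* had 217 UMIs in neurons, and in rank order (Spearman) it was in place 30, *Gm42397* in place 846 and *Slc17a7* in place 4571, so the order for *Adrb1* depends on the measure. *4930484I04Rik* and *Ripk2* were also first by Spearman.

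Whether activation of AgRP neurons with inhibition of POMC neurons came with other receptor levels in the hindbrain was tested on UMIs summed per library with the quasi-likelihood test of edgeR, for every gene detected in 5% or more of the nuclei of a type. A gene was called at a Benjamini-Hochberg adjusted p of 0.05. In bulk sums of this kind, fewer expressing nuclei and less RNA per nucleus cannot be told apart. Of 14 tested pairs of receptor gene and cell type, 0 were called by edgeR and 0 by DESeq2 (which gave no adjusted p for 1 of them), where edgeR called 0.111% of all 101074 pairs of gene and type. At an unadjusted p under 0.05 there were 5 pairs by edgeR (2 by DESeq2), against 5.7% of all pairs. *Adra1d*, *Adra2a*, *Adra2b* and *Adra2c* passed the detection filter in no type, and *Adra1a* and *Adra1b* did so in 5 types each and *Adrb1* in 4.

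**Figure D5:**
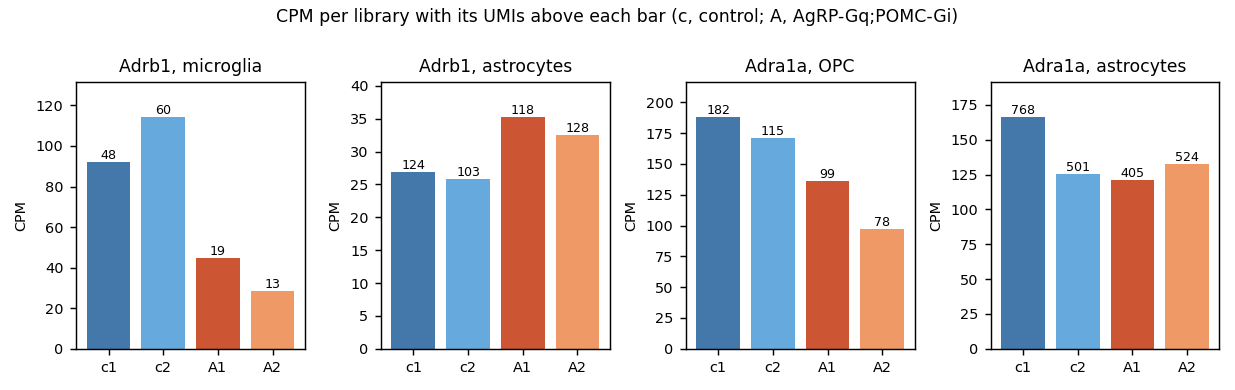
CPM (vertical axes from 0) in each library with the number of UMIs above the bar, for *Adrb1* in microglia and astrocytes and *Adra1a* in OPC and astrocytes. In microglia both AgRP-Gq;POMC-Gi libraries (19 and 13 UMIs of *Adrb1*) lie below both control libraries (48 and 60 UMIs), and in astrocytes they lie above (35.2 and 32.5 against 26.8 and 25.8 CPM).

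The pair with the smallest p was *Adrb1* in microglia. Control libraries had 92.1 and 114 CPM (48 and 60 UMIs), and AgRP-Gq;POMC-Gi libraries had 44.8 and 28.5 CPM (19 and 13 UMIs). The groups did not overlap, as was the case in this direction for 18.5% of genes tested in microglia. The difference was -1.49 on the log2 scale (SE 0.32, edgeR unadjusted p = 0.000371, adjusted p = 0.350), so it did not pass the test. The share of microglia with a UMI was 16.8% and 18.8% in control and 8.44% and 5.42% in AgRP-Gq;POMC-Gi libraries, and 6.46%, 8.72%, 4.21% and 2.72% with nuclei thinned to 800 UMIs, again without overlap. Median depth of microglia was 2032, 1870, 1695 and 1853 UMIs. The 3 astrocyte markers stood at 457, 419, 470 and 241 CPM and the 3 neuron markers at 240, 173, 222 and 217 CPM. The 3 macrophage markers were at 1.92 and 3.81 CPM in control libraries and higher, at 4.72 and 13.1 CPM, in those of AgRP-Gq;POMC-Gi mice. Further markers also lay apart between the groups, in both directions. The summed microglia markers *Tmem119*, *Cx3cr1* and *P2ry12* were at 2011 and 1719 CPM in control libraries and higher, at 2286 and 2380 CPM, in both others. The 3 oligodendrocyte markers were lower, at 739 and 680 CPM in control and 488 and 558 CPM in those of AgRP-Gq;POMC-Gi mice, and oligodendrocytes themselves had 0.593 CPM of *Adrb1*. The part of these markers in the result was not tested.

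In astrocytes *Adrb1* went the other way. The 2 AgRP-Gq;POMC-Gi libraries (35.2 and 32.5 CPM) lay above the 2 control libraries (26.8 and 25.8 CPM), as for 15.2% of genes tested there in this direction, with a difference of 0.40 on the log2 scale (SE 0.17, edgeR adjusted p = 0.423), which was not called. Summed astrocyte markers in these nuclei went the same way (1177 and 1208 against 1452 and 1327 CPM), and oligodendrocyte markers the other way (422 and 469 against 282 and 346 CPM), and their part was not tested. After these values had been seen, the difference between the 2 cell types was tested itself, with the library as a block, over 5601 genes. The group difference of *Adrb1* was lower in microglia than in astrocytes by a log2 value of -1.89 (SE 0.33, edgeR unadjusted p = 3.04e-06, adjusted p = 0.00851), and 9 genes (0.161%) were called. DESeq2 gave -1.92 with an adjusted p of 0.748 and called no gene.

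*Adra1a* in OPC had 188 and 171 CPM in control libraries (182 and 115 UMIs) and 136 and 97.1 CPM in those of AgRP-Gq;POMC-Gi mice (99 and 78 UMIs). The groups did not overlap, as for 20.3% of genes tested in OPC in this direction. The difference of -0.59 on the log2 scale (SE 0.19, edgeR unadjusted p = 0.00541, adjusted p = 0.497) was not called. Its size depended on the library left out, at -0.91 without AgRP-Gq;POMC-Gi replicate 1 and -0.30 without replicate 2 of that group. Shares of OPC with a UMI were 50%, 43.8%, 31.3% and 28.6% at median depths of 4663, 3615, 3170 and 3736 UMIs, and 13.4%, 12.0%, 9.85% and 6.79% at 800 UMIs, where the groups did not overlap either. The summed OPC markers *Pdgfra*, *Cspg4* and *Vcan* were 3465, 3510, 3482 and 3201 CPM, and the oligodendrocyte markers were 325, 414, 277 and 262 CPM, lower in both AgRP-Gq;POMC-Gi libraries. The part of depth and of these markers in the result was not tested. In astrocytes the *Adra1a* libraries of the groups overlapped (-0.16 on the log2 scale, SE 0.14, edgeR adjusted p = 0.754, and 0.06 without control replicate 1), and the difference between OPC and astrocytes, tested after the values had been seen, was not called (-0.42, SE 0.20, edgeR adjusted p = 0.679), nor was that between OPC and neurons (-0.64, SE 0.19, edgeR adjusted p = 0.274).

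The remaining 2 pairs rest on few UMIs. *Adra1b* in tanycyte-like nuclei had 0 and 2 UMIs in control and 10 and 19 in AgRP-Gq;POMC-Gi libraries (0, 25.0, 48.6 and 58.3 CPM), a log2 difference of 2.34 (SE 0.93, edgeR adjusted p = 0.764). The pair passed the detection filter through the higher group, where 11 of 150 nuclei had a UMI, against 2 of 52 in control, and its size rests on the control libraries (1.28 without control replicate 1 and 6.55 without control replicate 2). *Adrb1* in F13a1.Immune nuclei had 3 and 4 UMIs in control libraries and 0 in both others (edgeR adjusted p = 0.999). With a floor of 3 UMIs put in for both others, control was 1.53-fold higher, which takes its 7 UMIs as exact and is no lower bound. This pair too passed the detection filter through 1 group, with a UMI in 6 of 52 control nuclei and 0 of 36 others.

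Over all neurons, the 2 testable receptor genes did not pass the test. *Adra1a* had 42.0 and 43.6 CPM in control and 44.3 and 40.0 CPM in those of AgRP-Gq;POMC-Gi mice, and the groups overlapped (0.04 on the log2 scale, SE 0.10, edgeR adjusted p = 0.939). The sign of this difference depends on the scaling, since it was -0.02 without TMM factors, where control libraries had a mean of 42.8 CPM and the others 42.2 CPM. *Adra1b* had 21.6 and 20.7 CPM in control and 17.6 and 19.6 CPM in those of AgRP-Gq;POMC-Gi mice, without overlap, which was the case in this direction for 27.7% of genes (-0.13, SE 0.10, edgeR adjusted p = 0.823). In these neurons edgeR called 0 of 12115 genes (0.0%), with 5.51% at an unadjusted p under 0.05, and DESeq2 called 10. Genes under the detection filter were not tested. The libraries of 3 of them overlapped between groups: *Adra2a* 2.27 and 2.37 against 1.94 and 2.61 CPM, *Adra2c* 2.57 and 2.19 against 2.00 and 2.49 CPM, and *Adrb1* 4.17 and 4.27 against 4.64 and 3.77 CPM. *Adra1d* lay apart on few UMIs (0.335 and 0.437 against 0.141 and 0.255 CPM), and *Adra2b* had no UMI in control neurons.

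The genes that make and remove the ligand and carry the receptors' signals were read from the same neuron fit. Of 63 such genes in 5 lists, 49 were tested and 0 were called by edgeR, nor were any to which DESeq2 gave an adjusted p. With an unadjusted edgeR p under 0.05 there was 1, *Plcb1* of the Gq branch (535, 548, 579 and 622 CPM, 0.21 on the log2 scale, SE 0.09, edgeR adjusted p = 0.810). Its difference was also 0.21 with AgRP-Gq;POMC-Gi replicate 2 left out. The median log2 difference of the 49 genes was 0.01, beside 0.00 over all genes tested. Of 11 genes of catecholamine handling, 3 were tested, among them *Slc18a2*, the vesicular monoamine transporter (0.656 CPM per kb of gene span, 0.11 on the log2 scale, SE 0.19, edgeR adjusted p = 0.909, and below 0 without control replicate 2 or AgRP-Gq;POMC-Gi replicate 1). Of 14 genes of the Gq branch, 10 were tested (differences from -0.23 to 0.21), led per kb by *Gnaq* (1.18 CPM per kb), the Gq subunit itself, and the protein kinase C gene *Prkcb* (1.00 CPM per kb). Of 13 Gi/o genes 12 were tested (-0.17 to 0.16), led by *Cacna1a* (2.97 CPM per kb), a presynaptic calcium channel, and *Kcnj3* (2.57 CPM per kb), an inward rectifier potassium channel. Of 19 Gs genes 18 were tested (-0.15 to 0.20), led by *Gnas* (11.2 CPM per kb), the Gs subunit, and *Prkar1a* (3.23 CPM per kb), a regulatory subunit of protein kinase A. All 6 genes of desensitization were tested (-0.03 to 0.14), led by *Arrb2* (4.65 CPM per kb) and *Grk6* (1.29 CPM per kb), an arrestin and a receptor kinase. These orders are per kb of gene span, and the order of the lists per kb of exon was not computed.

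In single neuronal clusters, 250 pairs of receptor gene and cluster were tested, 102 for *Adra1a*, 93 for *Adra1b*, 35 for *Adrb1*, 13 for *Adra2a*, 6 for *Adra2c* and 1 for *Adra1d*. EdgeR called 0 of them and DESeq2 called 0 (with no adjusted p for 4 of them), where edgeR called 0.0387% of 1396489 pairs over all genes. At an unadjusted p under 0.05 there were 23 pairs by edgeR, 9 higher and 14 lower in AgRP-Gq;POMC-Gi libraries, and 3 by DESeq2. These 23 are 9.20% of the pairs, against 4.51% over all genes. The 5 smallest p-values belonged to clusters with few UMIs. *Adra1a* in cluster 142 (*Cpne4*/*Trhde*) had no UMI in control libraries and 22 and 3 UMIs in the others (0, 0, 122 and 31.6 CPM, edgeR adjusted p = 0.0629). With a floor of 3 UMIs put in for both control libraries, the others were 3.61-fold higher, which takes their UMIs as exact and is no lower bound. The pair passed the detection filter through the higher group alone. *Adra1b* in cluster 156 (*Ankfn1*/*Pou4f1*) had 8.61 and 12.7 CPM in control and 136 and 62.3 CPM in those of AgRP-Gq;POMC-Gi mice, from 1, 1, 15 and 12 UMIs (3.10 on the log2 scale, SE 0.83, edgeR adjusted p = 0.0802). *Adra1a* was lower in clusters 56 (105, 117, 16.1 and 57.8 CPM), 55 (62.8, 0, 9.16 and 8.39 CPM) and 111 (15.4, 50.6, 3.61 and 4.18 CPM), with edgeR adjusted p-values of 0.875, 0.908 and 0.446. In cluster 55 a control library stood at 0 and the groups overlapped. Cluster 111 had 1 and 7 UMIs in control and 1 and 1 in the others, so this pair passed the detection filter mainly through control. Cluster 156 was in place 6 of the *Adra1b* order, on the level of its AgRP-Gq;POMC-Gi libraries, and none of the 5 leading clusters of *Adra1a* or *Adra1b* was among these 5.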

How the data were processed

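The authors counted UMIs with Cell Ranger 7.0.0 on GRCm38 (mm10; Seurat 4.3.0 is also named in the submitters' processing notes) and deposited raw counts per gene and barcode for each library, before their filter, which removed nuclei under 800 UMIs or 500 genes or with over 10% mitochondrial RNA. Doublets were removed by the authors, and kept nuclei, clusters and cell types were taken from their deposited table, whose columns of scores per cluster hold their own comparisons and were not used. Columns not assigned to a sample numbered 0. Whether introns were counted is not given in the sources used here. Gene positions are from GENCODE on GRCm38.

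UMIs were summed per library and cell type or cluster and divided by all UMIs of these nuclei (CPM). Tests used edgeR 4.0.16 (quasi-likelihood, TMM) in R 4.3.3, where each library had 5 or more nuclei (13 types and 120 clusters), with the library as replicate (2 per group). The study's mixed model over nuclei was not used. Alternatives were library size alone, DESeq2 1.42.0, other gene filters, a block for the replicate number, and leaving out libraries in turn. Shares were also computed with nuclei thinned to 800 UMIs (2000 for clusters) by the hypergeometric chance that a nucleus keeps a UMI, and intervals are exact Clopper-Pearson. Tables and figures were made with Python 3.11.15, pandas 2.3.3, scipy 1.17.1 and matplotlib 3.10.9. The 7 genes, the pathway lists and the rule for named genes (the 5 leading clusters of each gene, the clusters the study follows up, the 3 clusters highest in *Dbh*, the 3 most alike genes, the 2 list genes highest per kb and the 5 pairs of smallest p) were chosen with earlier results of these data known. The scripts were tested on simulated data. On counts simulated from the real means and dispersions, edgeR called 98% of 2-fold changes in neurons, 90% in astrocytes, 47% in OPC and 46% in microglia. In clusters 101 and 63 it called 3% and 7% of 2-fold and 18% and 40% of 4-fold changes. A pair that was not called can therefore still differ between groups. Some genes that this rule names, and the gene names of some clusters, are not reported here.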

Additional observations from a re-analysis of the deposited data

Results flagged for a closer look

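The group difference of *Adrb1* had opposite directions in microglia and astrocytes, where each AgRP-Gq;POMC-Gi library was lower than both control libraries in microglia and higher in astrocytes. The test of this difference, -1.89 on the log2 scale, was chosen after the values had been seen, so it is a candidate for a check in other animals. Its edgeR adjusted p was 0.00851, and 0.000451 to 0.00635 without TMM factors or with other gene filters, whereas DESeq2 gave an adjusted p of 0.748. With libraries left out in turn the difference was -2.15 to -1.67.

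Among types with at least 20 UMIs of the gene, the libraries of the groups lay apart in opposite directions in 2 further cases, and these differences were not tested. *Adrb1* in F13a1.Immune nuclei (92.5 and 59.3 CPM in control, 0 in both others) is left out of this for its 7 UMIs. In AgRP-Gq;POMC-Gi mice, *Adra1b* was above control in tanycyte-like nuclei, on 31 UMIs and with the detection filter passed through the higher group (11 of 150 nuclei against 2 of 52), with a log2 effect of 1.28 to 6.55 when a control library was left out, and below it in neurons, a difference of 2.47 between the log2 effects. *Adrb1* was higher in astrocytes and lower in tanycyte-like nuclei (19.4 and 30.7 CPM, against 41.0 and 37.5 CPM in control libraries), a difference of 0.84. In tanycyte-like nuclei it rested on 4 and 3 UMIs in control and 4 and 10 in the others and was not called (-0.44 on the log2 scale, SE 0.75, edgeR adjusted p = 0.976). Nor was *Adrb1* in astrocytes called (edgeR adjusted p = 0.423), or *Adra1b* in tanycyte-like nuclei (0.764) or neurons (-0.13, SE 0.10, 0.823). In tanycyte-like nuclei 13.5% of genes lay apart upwards and 21.9% downwards.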

How the results depend on the processing

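No receptor gene was called in a cell type or in a cluster under any alternative that kept all libraries, where DESeq2 gave no adjusted p for 1 pair in types and 4 in clusters. With a library left out, 1 group has a single library whose spread is not measured. These fits are therefore read by effect size only. *Adra1b* in Oligodendrocytes/OPC was 8.02 on the log2 scale without control replicate 2, against 0.05 with all libraries. There the remaining control library held 0 nuclei of cluster 138 and the others 32 and 2. *Adra1a* in OPC was -0.91 without AgRP-Gq;POMC-Gi replicate 1, against -0.59 with all libraries. In cluster 55 *Adra1a* was -2.82 without control replicate 2, against -2.11 with all libraries. List genes called in neurons numbered 0 under every alternative that kept all libraries. Replicate numbers pair no shared batch in the labels (same-numbered libraries deviated together with r of 0.0721 to 0.345 over genes in 4 types), and the fit with the replicate number as a block called 0 receptor genes in types, 0 in clusters and 168 of all genes in neurons, against 0 without it. The difference of *Adrb1* between microglia and astrocytes was -1.92 under DESeq2 and no longer called. The cell type with the highest mean stayed the same under all alternatives for *Adra1a*, *Adra1b*, *Adra2a* and *Adrb1*, and for *Adra2c* it was OPC without control replicate 2. Of 25 places among the 5 leading clusters, 20 were kept with thinned shares and 11 with clusters of at least 10 nuclei. Of the 15 most alike genes, 7 stayed among the first 3 by Spearman and 6 with a pseudocount of 1 CPM. Small differences changed sign. *Adra1a* in neurons was -0.0217 without TMM factors and ranged from -0.0949 to 0.167 with libraries left out, below 0 when AgRP-Gq;POMC-Gi replicate 1 was dropped. *Adra1a* in astrocytes ranged from -0.355 to 0.0640, above 0 when control replicate 1 was dropped. *Slc18a2* in neurons ranged from -0.120 to 0.382, below 0 when either control replicate 2 or AgRP-Gq;POMC-Gi replicate 1 was dropped. No other difference followed under these alternatives reversed. The *Adra1a* differences between OPC and astrocytes (-0.72 to -0.14 with libraries left out) and between OPC and neurons (-0.80 to -0.49) were called under none that kept all libraries.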
